A study of Heliconius melpomene cythera and Heliconius melpomene rosina with 32 samples.

Results

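At 50% of pupal development, 52 of the 30720 loci in the count table were read in the wings of only 1 subspecies of Heliconius melpomene. A locus was selected when all 8 libraries of one subspecies at 50% development had at most 3 counts and all 8 of the other had at least 10. By this rule 25 loci were read in H. m. cythera only and 27 in H. m. rosina only. The counts at 50% chose the loci, so they are given as a description with no test. The 70% libraries took no part in the choice.

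H. m. cythera is the iridescent blue subspecies of western Ecuador and H. m. rosina is its matt black counterpart from Panama, and the study asked which genes differ between them while wing scales form. Both came from captive populations. RNA was sequenced from 32 libraries of 16 pupae, numbered 1 to 16 in the labels, and each pupa gave 2 libraries, one of the forewing with the posterior hindwing and one of the anterior hindwing. At 70% development the groups were cythera males 9 and 11 with cythera females 10 and 12, and rosina males 13, 14, 15 and 16. At 50% they were cythera females 1 and 3 with cythera males 2 and 4, and rosina females 6 and 8 with rosina males 5 and 7. Sex was thus not balanced between subspecies at 70%. The study removed a rosina individual as incorrectly labelled, on its position in the MDS and on its nucleotide variants, and its text does not number it. Individual 13 was kept apart by a choice made with earlier results of these data known, and whether it is that individual was not tested.

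Wing scales are single flattened cells whose ridges and cross-ribs are laid down during the second part of pupal life, and blue structural colour arises from layered ridges. The count table names loci by a number from a transcript assembly (MSTRG), to which an annotated gene ID (HMEL) is joined where one is known. An assembled locus without such an ID can be a new gene, a stray exon or a transposable element. Bulk counts measure the sum over all cells of the tissue, so fewer cells and less RNA per cell cannot be told apart, and neither can a locus that was not transcribed and one whose reads were not aligned.

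Library totals ran from 20151439 to 45570497 counts. A locus with no counts could still have had up to 3, which is 0.0658 to 0.149 CPM (counts divided by the library total and multiplied by 1000000) in single libraries, and this limit covers counting error only. Where both libraries of a pupa were added together at 70%, totals were 47415132 to 75702398 and the limit was 0.0396 to 0.0633 CPM. In what follows a locus is called read in a pupa when both of its libraries had at least 10 counts, and not read when both had at most 3.

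Few of the 52 loci carried an annotated gene ID. It was present in 5 of the 25 loci read in cythera and in 8 of the 27 read in rosina, 25% in all, against 78.7% of the 10736 loci with at least 10 counts in every library of a subspecies at 50%. Most of the 52 were weakly expressed, with a median in their own subspecies at 50% of 1.53 CPM in cythera and 2.22 CPM in rosina. Among the loci of that larger set under 10 CPM the annotated share was 65.6% in cythera and 65.9% in rosina. These were not matched in level to the 52 within that range. None had one of the 188 gene names given by hand in the table. No annotation that uses the MSTRG or HMEL IDs was at hand, so no function is given for any of them. In their own subspecies at 50% the loci ranged in mean from 0.529 to 7.83 CPM for those read in cythera, and from 0.520 to 148.5 CPM for those read in rosina. In 12 loci of each direction, the other subspecies had no count in any of its 8 libraries at 50%.

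**Figure D1:**
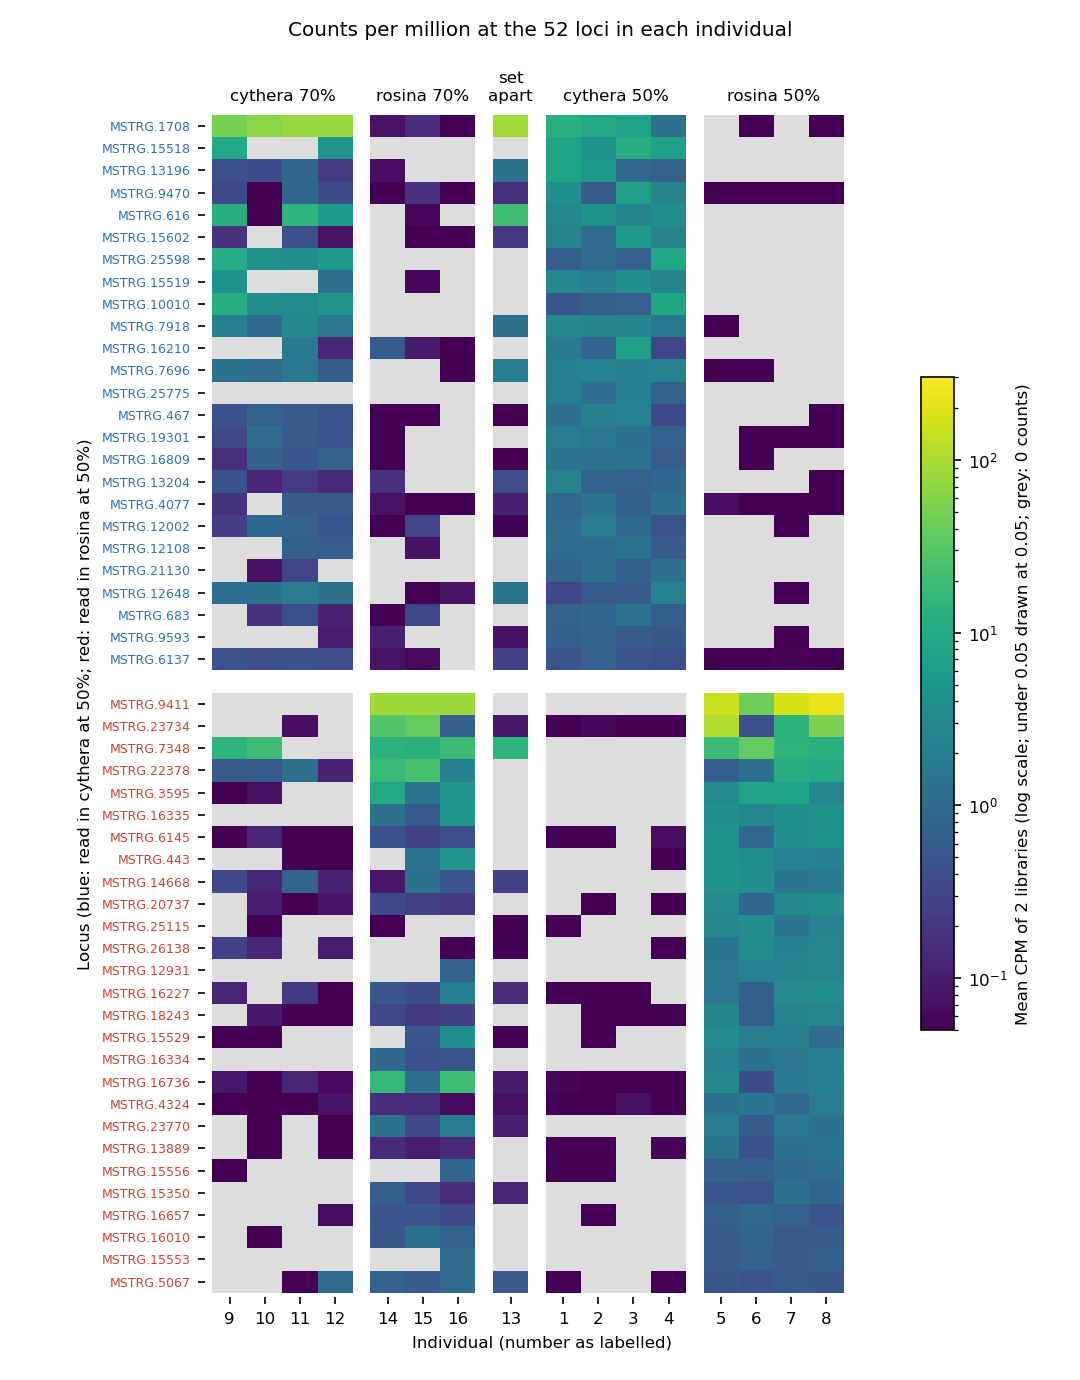
CPM of each of the 52 loci (rows, blue names for loci read in cythera at 50% and red names for loci read in rosina) in each of the 16 individuals (columns), as the mean of both libraries on a logarithmic colour scale, with 0 counts in grey. The blocks at 50% are filled or empty by the selection itself, while those at 70% show loci that held their pattern, such as MSTRG.9411 and MSTRG.1708, and loci read in part of a group, such as MSTRG.15518.

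At 70% the same count rule was met by 4 of the 25 loci read in cythera, namely MSTRG.25598, MSTRG.10010, MSTRG.7918 and MSTRG.7696, where 0.0879% of all loci met it in that direction. It was met by 4 of the 27 read in rosina, namely MSTRG.9411, MSTRG.23734, MSTRG.16335 and MSTRG.16010, where the share of all loci was 0.137%. None of the 52 met it in the opposite direction. In all, 27 loci met the rule in cythera and 42 in rosina at 70%, so 23 and 38 of these were loci that the 50% libraries had not selected. Without cythera pupa 9, 7 of the 25 met it, while 54 loci of the whole table did in place of 27.

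A weaker form of the pattern was more frequent. Every cythera pupa at 70% was above every rosina pupa in 11 of the 25 loci read in cythera, beside 5.18% of the loci with a count at that stage. Every rosina pupa was above every cythera pupa in 16 of the 27 loci read in rosina, beside 7.39%. Counts stayed at 3 or fewer in every rosina library for 13 of the 25, and in every cythera library for 16 of the 27. The side with reads stayed at 10 or more in every library for 6 of the 25 and 9 of the 27. No share of all loci was worked out for the counts at these limits, so they only describe the selected loci.

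In edgeR tests of 4 cythera against 3 rosina pupae at 70%, 6 of the 25 loci read in cythera were higher in cythera at FDR under 0.05, and 4 of the 27 read in rosina were lower in cythera. Over all 15021 loci tested, 0.519% were called higher and 0.526% lower. The filter on low counts was passed by 15 of the 25 and 17 of the 27, and the other 10 and 10 could not be called. Loci such as MSTRG.9411 and MSTRG.25598, without counts in the other subspecies, passed it only through the subspecies that read them. Most loci tested were not selected in this way, so the shares over all loci serve only as a scale. An unadjusted p under 0.05 was reached by 12 and 14 in these directions, beside 8.45% and 7.33% of the loci tested. With pupa 9, 10, 11, 12, 14, 15 or 16 left out in turn, 4, 5, 2, 2, 3, 4 and 4 of the 52 were called in place of 10, while the calls over all loci were 17, 64, 12, 21, 31, 33 and 40 in place of 157. Only MSTRG.1708 and MSTRG.9411 stayed under the FDR threshold in each of 7 fits that left out a pupa, and the same 2 loci alone passed with a term for sex. MSTRG.25598 stayed under it in 5 of the 7 fits. MSTRG.10010, MSTRG.7918, MSTRG.23734 and MSTRG.16736 did so in 1 each, and MSTRG.7696, MSTRG.19301 and MSTRG.3595 in 0.

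MSTRG.9411 (HMEL004480g1) was the locus read most strongly. At 70% it had 0 counts in all 8 cythera libraries, against sums of 4462, 5360 and 6113 counts in rosina pupae 14, 15 and 16. At 50% it had 0 counts in all 8 cythera libraries again, against 8832, 3281, 13258 and 15563 in rosina pupae 5, 6, 7 and 8. The subspecies did not come near each other at either stage, and the rosina pupae at 70% lay close together, at 82.9 ± 1.86 CPM (SD, n = 3). By its rosina mean, MSTRG.9411 was at least 1309.7-fold lower in cythera at 70%, measured against a limit of 3 counts per pupa (edgeR FDR = 0.00182). No count was found in individual 13.

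MSTRG.1708, which has no annotated ID, was the counterpart read in cythera. Its sums at 70% were 2370, 3107, 4379 and 4820 counts in cythera pupae 9, 10, 11 and 12, against 4, 10 and 1 in rosina pupae 14, 15 and 16. At 50% the sums were 1111, 801, 441 and 100 in cythera pupae 1, 2, 3 and 4, against 0, 3, 0 and 1 in rosina pupae 5 to 8. The groups did not overlap at either stage. The log2 fold change at 70% was 9.72 (SE 0.60, edgeR FDR = 0.00182), from 66.6 ± 13.8 CPM in cythera (SD, n = 4) and 0.0818 ± 0.0722 CPM in rosina (SD, n = 3). The 10 counts of pupa 15 all came from its forewing and posterior hindwing library, and they kept this locus from meeting the count rule again.

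**Figure D2:**
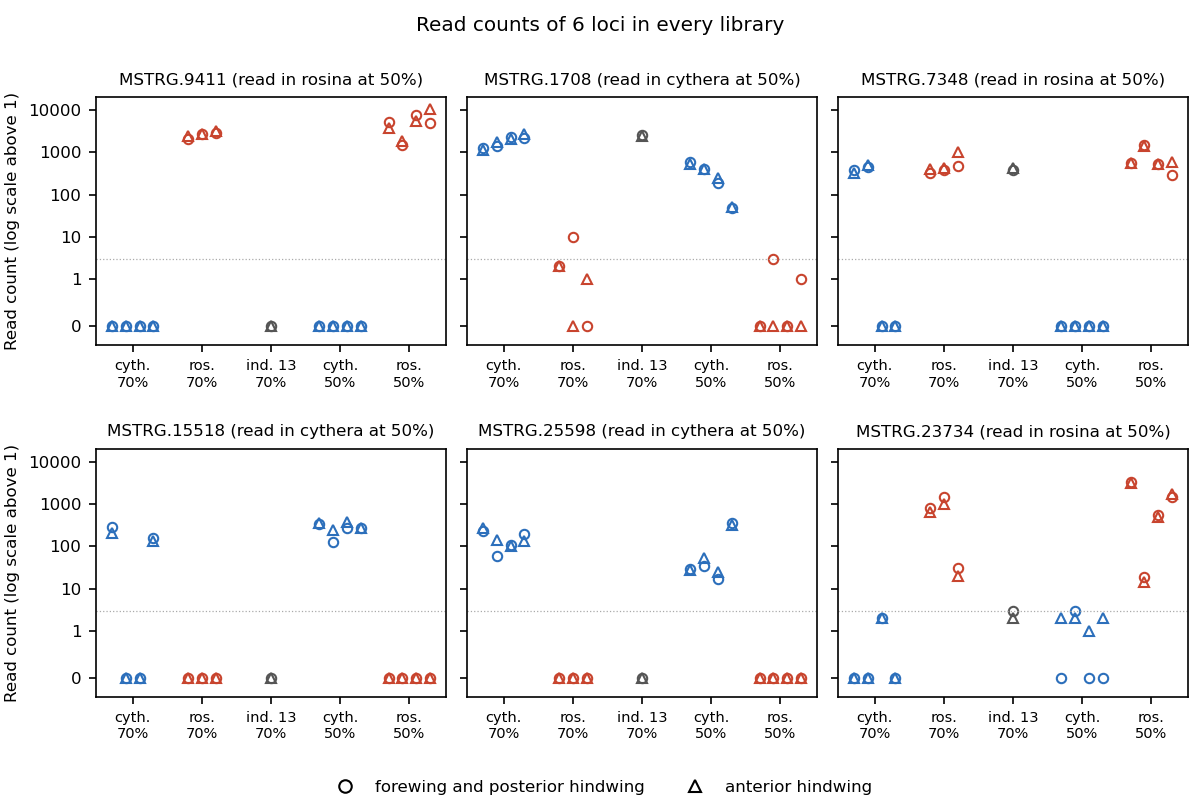
Read counts (vertical axis, logarithmic above 1) of 6 loci in every library, with circles for forewing and posterior hindwing and triangles for anterior hindwing, blue for cythera, red for rosina and grey for individual 13. The dotted line marks 3 counts. MSTRG.9411, MSTRG.1708, MSTRG.25598 and MSTRG.23734 kept the subspecies apart at 70%, whereas MSTRG.7348 was read in 2 cythera pupae and MSTRG.15518 was missing from 2 cythera pupae.

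MSTRG.25598 and MSTRG.10010 were both free of counts in every rosina library at both stages. The sums of MSTRG.25598 at 70% were 510, 202, 206 and 327 in cythera pupae 9 to 12, and those of MSTRG.10010 were 543, 165, 184 and 284. At 50% the sums in cythera pupae 1 to 4 were 57, 87, 41 and 664 for MSTRG.25598 and 45, 55, 41 and 631 for MSTRG.10010. Pupa 4 thus stood far above the other cythera pupae of its stage at both loci. At 70% their cythera means were 5.83 ± 3.02 and 5.54 ± 3.63 CPM (SD, n = 4). These means were 104-fold and 98.5-fold over the highest limit of 3 counts per rosina pupa (edgeR FDR = 0.0256 and 0.0316). The counts of both moved together over the 16 cythera libraries (r = 0.979 of log2 CPM), and MSTRG.10010 had 0.509 to 1.17 times the counts of MSTRG.25598. These libraries share pupae and depth, so the correlation is only descriptive.

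The other loci called higher in cythera were weaker. MSTRG.7918 had 104, 47, 172 and 100 counts in cythera pupae 9 to 12 and none in rosina. Its cythera mean, 1.92 ± 0.835 CPM (SD, n = 4), was 34.1-fold over the highest limit of 3 counts per rosina pupa (edgeR FDR = 0.0316). MSTRG.7696 had 67, 49, 93 and 36 counts in cythera pupae, against 0, 0 and 1 in rosina pupae, and was higher in cythera by 7.33 on the log2 scale (SE 0.97, edgeR FDR = 0.0316). MSTRG.19301 had 17, 52, 34 and 31 counts in cythera pupae, against 1, 0 and 0 in rosina pupae, a difference of 6.41 on the log2 scale (SE 1.07, edgeR FDR = 0.0462). None of the 3 had overlapping groups, and none has an annotated ID. MSTRG.467 followed with 22, 36, 33 and 29 counts in cythera pupae, against 2, 1 and 0 in rosina pupae, and did not pass (edgeR FDR = 0.0590).

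Among the loci read in rosina, MSTRG.23734 varied widely between pupae of one group. At 70% its sums were 0, 0, 4 and 0 in cythera pupae 9 to 12, against 1461, 2439 and 51 in rosina pupae 14, 15 and 16. At 50% they were 2, 5, 1 and 2 in cythera pupae 1 to 4, against 6568, 33, 1041 and 3176 in rosina pupae 5 to 8. Both stages therefore held a rosina pupa, number 16 and number 6, far below the rest of its group but above every cythera pupa. The log2 fold change at 70% was -10.01 (SE 1.62, edgeR FDR = 0.0434). MSTRG.3173 missed the selection through a single cythera library with 6 counts. The paper lists it as differentially expressed between subspecies at 50%, inside its interval for blue colour but outside that for luminance. It had 3984, 6787 and 71 counts in rosina pupae 14 to 16 and 20007, 33, 3270 and 9313 in pupae 5 to 8. The low pupae were thus the same at both loci (r = 0.998 over 14 rosina libraries), and MSTRG.3173 had 0.929 to 3.18 times the counts of MSTRG.23734, with a median of 2.86.

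MSTRG.16736 and MSTRG.3595 were also called lower in cythera. The first had 4, 1, 7 and 4 counts in cythera pupae 9 to 12, against 870, 76 and 1449 in rosina pupae 14 to 16 (log2 fold change -7.33, SE 1.04, edgeR FDR = 0.0358). MSTRG.3595 (HMEL007712g1 and HMEL036099g1) had 2, 4, 0 and 0 counts in cythera pupae, against 526, 90 and 350 in rosina pupae (log2 fold change -7.36, SE 1.18, edgeR FDR = 0.0432). In both, pupa 15 was the lowest of the rosina pupae without overlapping cythera. MSTRG.16335 had no counts in cythera at 70%, against 68, 36 and 381 in rosina pupae 14 to 16. Its rosina mean, 2.29 ± 2.40 CPM (SD, n = 3), was 36.2-fold over the highest limit of 3 counts per cythera pupa. The mean rests largely on pupa 16, and the lowest rosina pupa had 0.566 CPM. The locus was not called (edgeR FDR = 0.0796).

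Some loci were read in at least 1 pupa of their own subspecies at 70% and not read in at least 1 other, with pupae between these limits in part of them. This was found in 8 of the 25 loci read in cythera and 4 of the 27 read in rosina. Such loci were not counted over the whole table, so how common they are among loci of like level was not tested. MSTRG.15518 (HMEL026013g1) and its neighbour by number MSTRG.15519 (HMEL026011g1) were examples. MSTRG.15518 had 478, 0, 0 and 287 counts in cythera pupae 9 to 12 and 0 in rosina pupae, and MSTRG.15519 had 204, 0, 0 and 75 in cythera pupae, against 0, 4 and 0 in rosina pupae. The male and the female with reads at these loci were each matched by a male and a female without. At 50% MSTRG.15518 had 697, 367, 630 and 542 counts in cythera pupae 1 to 4. Over the 16 cythera libraries the counts of MSTRG.15518 were 2 to 4.43 times those of MSTRG.15519 wherever either was read (r = 0.992).

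MSTRG.616 had 553, 2, 827 and 349 counts in cythera pupae 9 to 12, against 0, 4 and 0 in rosina pupae, so that a single cythera female overlapped rosina. Its log2 fold change of 8.44 (SE 2.03) was not called (edgeR FDR = 0.103). MSTRG.12108 (HMEL031006g1) had 0, 0, 41 and 40 counts in cythera pupae, against 0, 5 and 0 in rosina pupae. Among loci read in rosina, MSTRG.443 had 0, 89 and 355 counts in rosina pupae 14, 15 and 16, and MSTRG.15529 had 0, 32 and 291. MSTRG.15553 (HMEL032030g1) had 0, 0 and 81 and MSTRG.15556 had 0, 0 and 62. Pupa 14 was without reads at these 4 loci, pupa 15 at the last pair, and pupa 16 had reads at each.

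A few loci were also read in the other subspecies at 70%. No locus of the 25 was read in a rosina pupa, but 3 of the 27, MSTRG.7348, MSTRG.5067 and MSTRG.14668, were read in a cythera pupa. MSTRG.7348 (HMEL011179g1) had 701, 949, 0 and 0 counts in cythera pupae 9 to 12, against 709, 790 and 1470 in rosina pupae 14 to 16. At 50% it had 0 in all cythera libraries, against 1116, 2918, 1071 and 859 in rosina pupae 5 to 8. Cythera pupae therefore either reached the rosina level or had no count at all, and the log2 fold change at 70% was -0.83 (SE 1.72, edgeR FDR = 0.868). The cythera pupae with reads were a male and a female.

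MSTRG.5067 (HMEL036621g1) had 0, 0, 1 and 64 counts in cythera pupae 9 to 12, against 43, 37 and 79 in rosina pupae 14 to 16 (edgeR FDR = 0.727). MSTRG.22378 (HMEL013166g1) had 23, 28, 66 and 7 counts in cythera pupae, against 935, 1506 and 165 in rosina pupae. Its groups stayed apart, with a log2 fold change of -4.58 (SE 0.92) that was not called (edgeR FDR = 0.0704). MSTRG.14668 (HMEL012630g1) had 15, 7, 45 and 7 counts in cythera pupae and 5, 80 and 36 in rosina pupae. It was read in pupa 11 of cythera and pupa 16 of rosina, so the groups overlapped (log2 fold change -0.84, SE 0.98, edgeR FDR = 0.747), although all 8 cythera libraries at 50% had 0 counts.

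**Figure D3:**
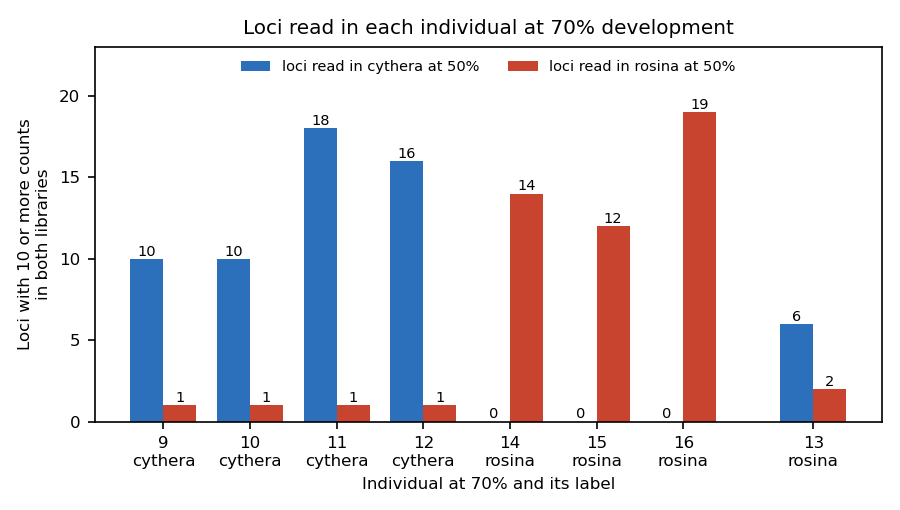
Number of loci (vertical axis) with at least 10 counts in both libraries of each individual at 70%, with blue bars for the 25 loci read in cythera at 50% and red bars for the 27 read in rosina. Cythera pupae read 10 to 18 of the first and 1 of the second, rosina pupae 14 to 16 read 0 and 12 to 19, and individual 13 read 6 and 2.

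Counted per pupa at 70%, cythera pupae 9, 10, 11 and 12 read 10, 10, 18 and 16 of the 25 loci read in cythera, whereas rosina pupae 14, 15 and 16 read 0 each. Of the 27 loci read in rosina, each of the 4 cythera pupae read 1, whereas rosina pupae 14, 15 and 16 read 14, 12 and 19. Individual 13, labelled rosina, read 6 of the 25 and 2 of the 27. Those 6 were MSTRG.1708 with a sum of 4966 counts, MSTRG.616 with 1135, MSTRG.7696 with 115, MSTRG.12648 with 86, MSTRG.13196 (HMEL031296g1) with 74 and MSTRG.7918 with 66. The sums of rosina pupae 14 to 16 at these 6 loci were 10 or less.

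The 2 loci read in rosina that individual 13 also read were MSTRG.7348, with 802 counts, and MSTRG.5067, with 31. Both were read in cythera pupae at 70% too, as given above. At MSTRG.9411, MSTRG.3595, MSTRG.22378 and MSTRG.16335, which rosina pupae 14 to 16 all read, individual 13 had 0 counts. MSTRG.25598 and MSTRG.10010, read in each of the 8 cythera pupae, also had 0 counts there. At MSTRG.25 (HMEL002147g1), outside the selection through rosina libraries with 18 and 43 counts, individual 13 had 2315 counts, beside 2012 to 3381 in cythera pupae 9 to 12 and 0, 0 and 8 in rosina pupae 14 to 16. With individual 13 counted as rosina, edgeR called 0 of the 52 and only 1 of the 14047 loci tested. The count rule at 70% was then met by 2 of the 25 and 0 of the 27, and by 9 and 0 loci of the whole table.

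Within the subspecies that read them, most loci had lower levels at the later stage. The mean CPM was lower at 70% than at 50% in 20 of the 25 and 23 of the 27, with a median log2 ratio of -1.17 and -0.95. Among all loci with at least 10 counts in every library of the subspecies at 50%, 57.0% in cythera and 57.7% in rosina were lower at 70%, and 49.6% and 50.1% of those under 10 CPM were. The loci were selected on being read at 50%, and the others were not matched to them in level, so this comparison between stages is a description.

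**Figure D4:**
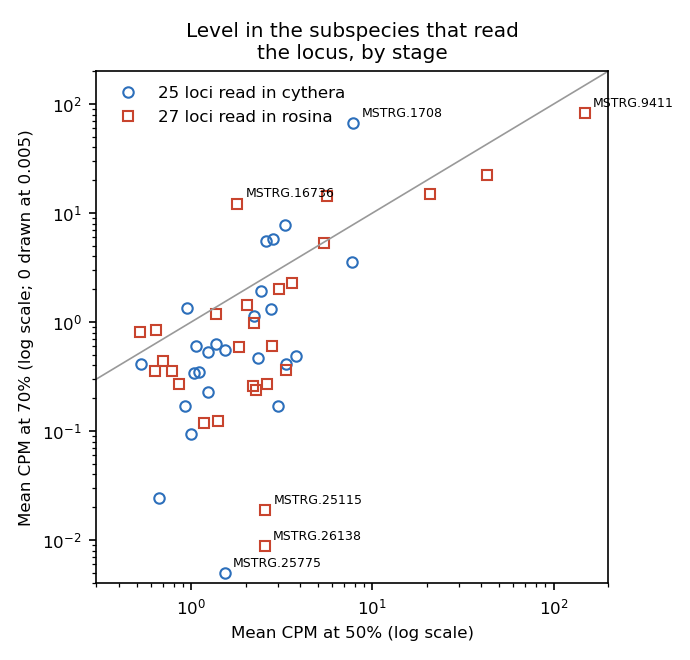
Mean CPM at 70% (vertical axis) against mean CPM at 50% (horizontal axis), both on logarithmic scales, in the subspecies that read the locus at 50%, with blue circles for cythera and red squares for rosina. Points under the line were lower at 70%, as 43 of the 52 were, while MSTRG.1708 and MSTRG.16736 lie well above it and MSTRG.25775, drawn at the lower edge, had no count at 70%.

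Some had next to no counts left at 70%. MSTRG.25775 had 0 counts in all 8 cythera libraries at 70%, against 176, 95, 126 and 57 in cythera pupae 1 to 4 at 50%. MSTRG.25115 (HMEL035490g1) had 3, 0 and 0 counts in rosina pupae 14 to 16, against 166, 269, 111 and 176 in rosina pupae 5 to 8. MSTRG.26138 had 0, 0 and 2 counts, against 89, 267, 161 and 214. In 2 of the 25 and 4 of the 27, no library of the reading subspecies reached 10 counts at 70%. The opposite was seen at MSTRG.1708, higher at 70% by 3.09 on the log2 scale, and at MSTRG.16736, higher by 2.76.

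Only part of the 52 could be tested between wing regions, and none of those was called. In edgeR fits with the pupa as a block at 70%, 0 of 17 loci tested were called between forewing with posterior hindwing and anterior hindwing in cythera, and 0 of 17 in rosina, where 0.327% and 0.684% of all loci tested were called. At an unadjusted p under 0.05 the counts were 0 and 1, beside 8.64% and 11.6% of the loci tested. With so few loci tested and so small a share called over all loci, the absence of calls says nothing particular about these loci. The lowest FDR in rosina was that of MSTRG.23734, higher in forewing and posterior hindwing by 0.75 on the log2 scale (SE 0.13, edgeR FDR = 0.0791), and DESeq2 called 0 of the 25 in cythera, with 178 of all 12534 loci, and this locus alone in rosina, with 379 of all 12860. Without a block the fits called 0 of all loci in both subspecies, so the 0 at these loci says nothing about them. Of 134 pairs of a locus and a pupa at 70% with at least 10 counts in a library, 103 had at least 10 in both and 7 had at most 3 in the other. Of those 7, 4 were in pupa 9, 2 in pupa 15 and 1 in pupa 16.

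The edge of the selection ran through a continuum. Just inside, the lowest library of the reading subspecies had 10 or 11 counts in 2 loci read in cythera and 3 read in rosina, among them MSTRG.6137, MSTRG.16210, MSTRG.15350 and MSTRG.15553. Just outside, 8 and 9 loci failed because their lowest library had 8 or 9 counts, and 18 and 15 because the highest library of the other subspecies had 4 or 5. A single pupa weighed heavily on the number selected. Without cythera pupa 4 another 52 loci met the rule in cythera, and that pupa had at most 3 counts in both libraries at 30 of them. Without rosina pupa 6 another 53 met it in rosina, with at most 3 counts in both libraries of that pupa at 35 of them. At 70% the count rule was met by 0 of these 52 and 5 of these 53. The number selected in cythera also grew to 39, 39 and 48 without pupa 1, 2 or 3, and that in rosina to 41 without pupa 5.

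**Figure D5:**
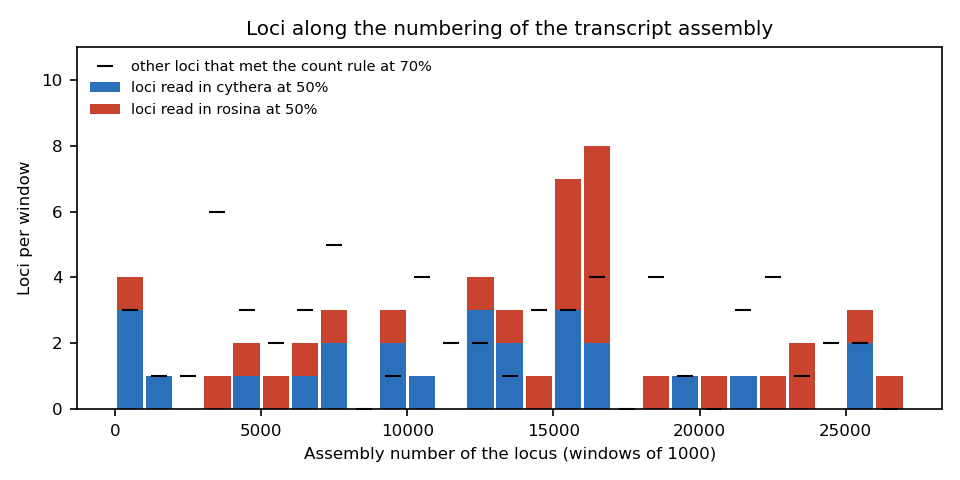
Loci per window of 1000 assembly numbers (vertical axis) along the numbering (horizontal axis), with blue and red bars stacked for the 25 loci read in cythera and the 27 read in rosina, and dashes for the 61 other loci that met the count rule at 70%. The windows from 15000 to 16999 hold 7 and 8 of the 52, and no other window holds more than 4.

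The loci were not spread evenly over the assembly numbers. Numbers 15000 to 16999, picked as the pair of neighbouring windows with most loci, held 15 of the 52 (28.8%), 5 read in cythera and 10 in rosina, beside 7.64% of all 26173 numbered loci and 8.18% of those read at 50%. The contrast depended on where windows were placed. In windows of 2000 numbers, those from 12000 to 13999, 14000 to 15999 and 16000 to 17999 held 7, 8 and 8. The numbering keeps gene order in part, since in 83.0% of neighbours by number with comparable HMEL IDs those IDs were at most 5 apart. The 61 loci that met the rule at 70% only had 7 (11.5%) in this range, and of the 147 other loci that edgeR called at 70%, 7 (4.76%) lay there. Chromosomes and positions were not used here. Next to each other by number were MSTRG.15518 and MSTRG.15519, both read in cythera, and MSTRG.16334 and MSTRG.16335, both read in rosina.

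Another set with like counts was not adjacent. MSTRG.18243, MSTRG.20737, MSTRG.6145 and MSTRG.13889, all read in rosina and without annotated ID, correlated at r = 0.980 to 0.992 over 14 rosina libraries of both stages. All 4 were lower at 70%, so the change between stages enters these values. At 50% their sums were lowest in pupa 6 in each case, at 50, 68, 72 and 34 counts, against 154 to 215, 182 to 250, 242 to 324 and 86 to 103 in the other 3 rosina pupae. At 70% all 4 were weak, with 14 to 19, 16 to 18, 17 to 30 and 6 to 10 counts per rosina pupa. Within stages, r was 0.978 to 0.997 over 8 libraries at 50% and 0.298 to 0.875 over 6 libraries at 70%. Reads shared between similar copies, which the counting could have split, were not examined.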

How the data were processed

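RNA was extracted with the QIAgen RNeasy kit and libraries were made with the TruSeq Stranded mRNA kit. The authors deposited raw counts per locus, unscaled and in whole numbers, in a table of 30720 loci and 32 libraries, of which 0 columns were left unused. The submitters' processing notes name Trimmomatic 0.38, HISAT2 2.1.0, SAMtools 1.9, StringTie 1.3.5 and edgeR. The genome build, the annotation and the program that counted reads are not given in the sources used here. None of the 52 loci matched the 15508 genes of the RefSeq assembly ASM5695672v1. No annotation with the IDs of the count table was at hand, so this does not show that the loci are missing from that assembly. Loci keep the names of the table and no sequence is shown.

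Subspecies were taken from the organism given for each sample. At 70% both libraries of a pupa were summed and cythera was compared with rosina without individual 13, in R 4.3.3 with edgeR 4.0.16 (filterByExpr with a minimum count of 10, TMM, quasi-likelihood F-test in its earlier form, FDR over all loci tested). Log2 fold changes are cythera over rosina. Nothing in the labels says how far pupae of a group were related. Wing regions were compared with the pupa as a block, since the labels give both libraries of a pupa 1 number. The deviations of such pairs from their group means correlated at 0.701 to 0.774 (median 0.763, 7 pairs). DESeq2 1.42.0, other scalings, filters and subsets of libraries served as alternatives. Libraries of a group differed by a chi-square of at least 73.1 per degree of freedom, so no library was counted double. The fits were first tested on simulated data.

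The loci, the comparisons and the rule for naming were chosen with earlier results of these data known. Named by rule were, per direction, the 8 loci with the highest mean at 50%, up to 5 more with an annotated ID, up to 5 with over 3 counts in most libraries of the other subspecies at 70%, the 5 lowest at 70% and the 2 nearest the threshold, 33 loci in all, with MSTRG.3173 and MSTRG.25 outside it. Loci named beyond these met the count rule again, were called or nearly called at 70%, were read in individual 13, or had counts like those of another locus, and were picked after their values were seen. Python 3.11.15, pandas 2.3.3 and matplotlib 3.10.9 were used for the tables and plots.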

Additional observations from a re-analysis of the deposited data

Results flagged for a closer look

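In 6 cases a pupa stood far from the other pupae of its group at a locus by Dixon's criterion, among 48 groups compared. The criterion picks out about 1 in 20 groups of normally distributed values. Low counts need not be distributed in that way, so the 6 cases cannot be set against that rate. Cythera pupa 1 had 2.55 CPM of MSTRG.13204 (HMEL031288g1) at 50%, against 0.729 to 0.886 in the other 3 cythera pupae, and pupa 4 had 8.91 CPM of MSTRG.25598, against 0.646 to 1.04. At 70%, cythera pupa 11 had 1.73 CPM of MSTRG.16210, against 0 to 0.129 in the others. Pupa 12 had 0.0968 CPM of MSTRG.9593, a sum of 6 counts, against 0 in the others, so any count there would have been picked out. Rosina pupa 6 was low at MSTRG.13889 with 0.436 CPM at 50%, against 1.36 to 1.48, and high at MSTRG.15553 with 0.757 CPM, against 0.587 to 0.602. Its sum at MSTRG.15553 was 59 counts, against 35, 45 and 41 in rosina pupae 5, 7 and 8.

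Individual 13, left out of the comparisons between subspecies except where it was added as rosina, had at least 10 counts in both libraries at 6 of the loci read in cythera and at 2 of those read in rosina, while rosina pupae 14 to 16 had 0 of the first kind. How its label bears on these counts was not tested.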

How the results depend on the processing

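The number of loci selected at 50%, 25 in cythera and 27 in rosina, depended on the limits. It was 12 and 12 with 0 counts asked of the other subspecies, 7 and 11 with at least 30 counts in the reading one, and 14 in cythera with at most 10 and at least 30. It was 42 and 51 in forewing and posterior hindwing libraries alone, 49 and 65 in anterior hindwing libraries alone, and 27 to 77 and 30 to 80 with a pupa left out, highest without pupa 4 and without pupa 6. At 70% the count rule was met by 7 and 8 of the selected loci at a limit of 5 counts and by 2 and 0 with individual 13. With a pupa left out it was met by 4 to 7 and 4 to 6. Over the whole table it was met by 51 and 102, by 9 and 0, and by 32 to 54 and 47 to 113 loci in the same order.

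The edgeR calls at 70%, 6 and 4, were 12 and 12 with DESeq2, 10 and 9 with the newer quasi-likelihood fit, 1 and 1 with a sex term, 0 and 1 in males only and 0 and 0 with individual 13. Over all loci the calls, 157, were 1374, 519, 15, 1 and 1 in the same order. Of the selected loci, 4 in cythera and 2 in rosina were called without a filter, and 4 and 2 in anterior hindwing libraries. In forewing and posterior hindwing libraries 4 and 1 were called. Over all loci these 3 fits called 61, 50 and 31. With a pupa left out, 1 to 4 and 1 to 2 of the selected loci were called, beside 12 to 64 over all loci. Between wing regions, calls were 0 to 1 in cythera with a pupa left out (MSTRG.616 without pupa 12) and 1 in rosina with DESeq2. Without the replicate block they were 0 in both, where these fits called 0 of all loci. Of the values for named loci, the only change of direction was at MSTRG.14668, with a log2 fold change of -1.67 to 0.18 when a pupa was left out, positive only without rosina pupa 15.

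At 70%, 20 of the 52 did not pass the filter on low counts. Some of these were weak in every pupa, and others, such as MSTRG.15518 and MSTRG.443, had reads in part of the group only. With 4 against 3 pupae, and no rosina female at 70%, subspecies and sex cannot be fully told apart.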
